A study of Mus musculus with 3 samples.

Results

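The small leucine-rich proteoglycans (SLRPs) are secreted matrix proteins built on a core of leucine-rich repeats, most of which carry chondroitin, dermatan or keratan sulfate chains. Many of them bind collagen fibrils or growth factors of the TGFβ family, and mice that lack certain members form tendon fibrils of abnormal width. The genes examined were 10 named members: *Dcn*, *Bgn* and *Aspn* of class I, *Fmod*, *Lum*, *Prelp*, *Kera* and *Omd* of class II, and *Epyc* and *Ogn* of class III. Each was found by its symbol in the count tables, with 10 of 10 among the 27755 genes of the D10 culture, 10 of 10 among the 27755 genes of the E14.5 tail, and 8 of 10 among the 25936 genes of D6 PM. *Kera* and *Epyc* were not analysed in D6 PM.

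Single-cell RNA sequencing was analysed for 3 libraries, 1 for each group, to set tendon and fibrocartilage cells made from mouse embryonic stem cells (mESCs) beside their embryonic counterparts. The D6 PM library came from embryoid bodies of ScxGFP mESCs, which carry a GFP reporter of the tendon transcription factor *Scx*, after treatment with LDN-193189, a BMP receptor inhibitor, and then with CHIR, a Wnt activator, together with LDN-193189, to specify paraxial mesoderm (PM). The D10 culture library came from such cells after replating and further treatment from D6 to D10 with TGFβ1, FGF2 and SAG, which activates hedgehog signaling through smoothened. The study used 3 ScxGFP lines, kept on irradiated mouse embryonic fibroblast feeders, and the line of each library was not given in the sources used here. The E14.5 tail library came from whole mouse tails that were not treated, and the embryos of the study were from ScxGFP mice of the C57BL6 strain, whereas their number in this library was not given in the sources used here. All cells passed a dead cell removal step before capture. With 1 library per group there was no replicate check and no test, so each level is given with an exact 95% interval that covers counting error only: a Poisson interval for levels, a conditional binomial one for ratios and a Clopper-Pearson one for shares.

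The culture held 7821 cells and the tail 2052, in clusters the authors made jointly, and D6 PM held 5954 cells in 6 clusters of its own. The median number of unique molecular identifiers (UMIs, which mark single captured transcripts) per cell was 5622, 13512 and 8171. Levels are given in CPM: all cells of a cluster were pooled, and the pooled UMIs of each gene were divided by the pooled UMIs of every gene, and scaled to 1000000. The clusters were made from these genes among others, so differences between clusters are descriptions. The study names cluster 0 tendon, cluster 1 proliferating tendon and cluster 2 fibrocartilage, and in both libraries the summed tendon, proliferation and cartilage markers were highest in clusters 0, 1 and 2, respectively. The 9 cartilage markers summed to 5707 CPM in culture cluster 2 against 779 in cluster 0, and to 11093 against 447 in the tail. The 3 proliferation markers summed to 3307 CPM in culture cluster 1 and 3327 CPM in tail cluster 1. Cluster 3 held 3160.2 CPM of 6 mesenchyme markers in the tail and 446 CPM in the 53 cells of the culture. The sum does not mark it, since tail clusters 4 and 7, with epithelial markers, held 4275.9 and 3395.1 CPM of the same list, mostly as *Cxcl14* (3482 and 2603 CPM), so cluster 3 is called by its number. Its *Twist2* level in the tail, 487 CPM, was above those of clusters 4 and 7 (14.2 and 6.88 CPM). The numbers of clusters 2, 3, 4 and 8 were given by markers alone, because the cell counts that the study lists under those numbers belong here to clusters with other markers. Culture clusters 4, 5, 8 and 12 held 5575, 3106, 1129 and 3331 CPM of 6 pluripotency markers, and clusters 4 and 8 did not match the cell types that their numbers have in the tail. Culture cluster 5 also held 17173 CPM of 6 blood markers, against at most 31.8 CPM in the other culture clusters with a level, and the blood cells of tail cluster 5 held 582546 CPM. Few barcodes were shared between libraries (3 to 10 per pair).

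The members lie in a few chromosomal groups, shown here in the RefSeq annotation of GRCm38.p6, which need not be the build of the counts. *Dcn* (chr10:97479500-97518163), *Lum* (chr10:97565501-97572703), *Kera* (chr10:97606962-97613688) and *Epyc* (chr10:97644068-97681908) follow one another on chromosome 10. *Aspn* (chr13:49544443-49567565), *Omd* (chr13:49582462-49592612) and *Ogn* (chr13:49608015-49624501) are neighbors on chromosome 13 inside *Cenpp*, a centromere protein gene on the opposite strand. *Prelp* (chr1:133910304-133930102) and *Fmod* (chr1:134037254-134048280) are on chromosome 1, and *Bgn* (chrX:73483601-73495936) is on chromosome X. Neighbors did not share 1 pattern, as the levels below show. The promoters of 5 members are printed because their levels moved between clusters: *Fmod* and *Prelp*, highest in fibrocartilage, *Aspn* and *Ogn*, highest in tendon, and *Epyc*, whose order differed between the libraries. Each line gives the 250 bases before a RefSeq start, 5′ to 3′ on the strand of the gene, which is the minus strand for *Prelp* and the plus strand for the others. The *Prelp* window lies inside the gene as placed above, since the start in the table is downstream of the outermost one. Capitals mark every match, on either strand, of CANNTG (the E-box, which helix-loop-helix factors such as Scleraxis bind), AACAAT (a core of Sox sites) and TATAAA (the TATA box).
Fmod, chr1:134037004-134037253: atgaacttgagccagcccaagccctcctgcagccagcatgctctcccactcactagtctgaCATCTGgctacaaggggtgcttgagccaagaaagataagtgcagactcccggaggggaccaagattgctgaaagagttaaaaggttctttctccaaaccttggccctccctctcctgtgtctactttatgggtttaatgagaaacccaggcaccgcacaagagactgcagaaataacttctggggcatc
Prelp, chr1:133921402-133921651: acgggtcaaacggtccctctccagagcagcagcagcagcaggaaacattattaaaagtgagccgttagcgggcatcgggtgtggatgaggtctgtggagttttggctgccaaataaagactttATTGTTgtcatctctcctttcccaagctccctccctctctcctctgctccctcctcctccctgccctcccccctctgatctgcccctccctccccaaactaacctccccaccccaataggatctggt
Aspn, chr13:49544193-49544442: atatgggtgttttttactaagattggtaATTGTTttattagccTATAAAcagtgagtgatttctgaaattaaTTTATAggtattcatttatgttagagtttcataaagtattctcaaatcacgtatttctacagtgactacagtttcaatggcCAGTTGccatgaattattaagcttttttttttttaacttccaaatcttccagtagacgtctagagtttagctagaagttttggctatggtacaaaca
Ogn, chr13:49607765-49608014: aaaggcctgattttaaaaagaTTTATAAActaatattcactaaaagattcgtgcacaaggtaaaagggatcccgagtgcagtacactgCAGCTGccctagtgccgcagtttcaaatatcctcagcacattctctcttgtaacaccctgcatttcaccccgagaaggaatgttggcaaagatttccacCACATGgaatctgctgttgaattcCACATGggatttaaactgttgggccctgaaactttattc
Epyc, chr10:97643818-97644067: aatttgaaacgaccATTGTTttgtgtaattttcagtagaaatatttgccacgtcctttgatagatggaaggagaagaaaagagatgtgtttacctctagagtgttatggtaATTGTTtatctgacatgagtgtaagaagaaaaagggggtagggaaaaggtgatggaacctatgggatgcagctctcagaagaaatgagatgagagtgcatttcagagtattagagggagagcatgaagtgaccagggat
In the *Fmod* window 1 CANNTG was found and no AACAAT, and in the *Prelp* window 1 AACAAT and no CANNTG. The *Aspn* window held 1 CANNTG, 1 AACAAT and 2 TATAAA. The *Ogn* window held 3 CANNTG and 2 TATAAA, 1 on each strand, which overlap. The *Epyc* window held 2 AACAAT and no CANNTG, while its window before another RefSeq start, chr10:97646853-97647102, held 3 AACAAT and 2 CANNTG. Among 32841 windows of 250 bases before RefSeq starts, 66.2% held CANNTG, 9.43% held AACAAT and 12.4% held TATAAA. Windows were found for 8 of the 10 members, all but *Dcn* and *Lum*.

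In both libraries, the 10 members together made up more of the transcriptome in tendon than in fibrocartilage cells. Their UMIs summed to 4471 CPM in culture cluster 0, 3946 in cluster 1 and 3074 in cluster 2, and to 3066, 1906 and 932 CPM in the same tail clusters. In cluster 3 they summed to 2189 CPM in the culture and 3046 CPM in the tail. Because 3′ UMIs count transcripts irrespective of length, the order of members is an order of captured transcripts.

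*Dcn* encodes decorin, which binds collagen fibrils and TGFβ, and was the member with the most UMIs in cluster 0 of both libraries. In the culture, *Dcn* was at 1765 CPM (1745 to 1785) in cluster 0, 1547 CPM (1523 to 1571) in cluster 1, 662 CPM (635 to 691) in cluster 2 and 681 CPM (606 to 763) in cluster 3. In the tail it was at 1499 CPM (1475 to 1523), 925 CPM (896 to 954), 36.3 CPM (30.1 to 43.4) and 1505 CPM (1457 to 1555) in the same clusters. The tail fibrocartilage cells thus stood apart from the other 7 levels, while tail clusters 0 and 3 did not differ beyond counting error. Of the 120 *Dcn* UMIs of tail cluster 2, 45 came from 1 cell, without which its level was 22.9 CPM.

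*Bgn* encodes biglycan, the closest relative of decorin, and had a flatter pattern. It was at 1104 CPM (1088 to 1120.2), 971 CPM (952 to 989.9), 768 CPM (739 to 799) and 1301 CPM (1196 to 1412) in culture clusters 0 to 3, and at 251 CPM (242 to 261), 213 CPM (199 to 227), 235 CPM (219 to 252) and 303 CPM (281 to 325) in tail clusters 0 to 3. All 4 culture levels were above all 4 tail levels. *Aspn* encodes asporin, a class I protein without the usual glycosaminoglycan chain, and was at 114 CPM (109 to 119), 86.6 CPM (81.1 to 92.3), 21.4 CPM (16.7 to 26.9) and 43.3 CPM (26.1 to 67.6) in the culture and at 165 CPM (158 to 174), 73.2 CPM (65.4 to 81.7), 52.9 CPM (45.4 to 61.4) and 9.05 CPM (5.67 to 13.7) in the tail. *Aspn* was thus highest in cluster 0 of each library.

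*Fmod* encodes fibromodulin, a keratan sulfate proteoglycan needed for normal tendon fibrils. It was at 281 CPM (273 to 289), 351 CPM (339 to 362) and 746 CPM (717 to 776) in culture clusters 0 to 2 and had 1 UMI in cluster 3. In the tail it was at 41.7 CPM (37.8 to 45.9), 41.8 CPM (35.9 to 48.4), 102 CPM (91.6 to 114) and 14.8 CPM (10.4 to 20.5). Tail clusters 0 and 1 did not differ beyond counting error, and cluster 2 was highest in each library.

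*Lum* encodes lumican, which shares a collagen binding site with fibromodulin. In culture clusters 0 to 3 it was at 385 CPM (376 to 395), 379.6 CPM (368 to 391), 282 CPM (264 to 300.4) and 125 CPM (94.4 to 163), and in tail clusters 0 to 3 at 608 CPM (593 to 624), 438 CPM (419 to 459), 146 CPM (133 to 159.7) and 1026 CPM (986 to 1067). Cluster 3 of the tail was thus highest for *Lum*. In culture cluster 3, 32 of 55 *Lum* UMIs came from 1 cell, without which the level was 54.4 CPM.

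*Prelp* encodes a heparin-binding class II protein that is abundant in cartilage. Its levels were 5.30 CPM (4.25 to 6.54), 14.3 CPM (12.1 to 16.7) and 76.4 CPM (67.3 to 86.4) in culture clusters 0 to 2, and 2.57 CPM (1.68 to 3.76), 2.77 CPM (1.43 to 4.84) and 35.7 CPM (29.5 to 42.7) in tail clusters 0 to 2, with 1 and 2 UMIs in cluster 3 of the culture and the tail. Cluster 2 was the highest in each library. *Kera* encodes keratocan, best known from the cornea, and had 0 UMIs in the whole culture of 53403944 UMIs. In the tail it was at 20.1 CPM (17.5 to 23.1) in cluster 0, 31.9 CPM (26.8 to 37.7) in cluster 1, 0 UMIs in cluster 2 and 11.1 CPM (7.32 to 16.2) in cluster 3. Single cells held 67 of the 204 *Kera* UMIs in tail cluster 0 and 53 of 138 in cluster 1, and without them the levels were 13.6 and 19.7 CPM. *Omd*, which encodes the bone proteoglycan osteomodulin, had only 37 UMIs in the culture, 66 in the tail and 29 in D6 PM, and did not reach the minimum of UMIs in any comparison below.

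*Epyc* encodes epiphycan, a proteoglycan of growth plate cartilage. It was at 19.2 CPM (17.2 to 21.5), 16.1 CPM (13.8 to 18.6) and 7.82 CPM (5.11 to 11.5) in culture clusters 0 to 2 and at 3.65 CPM (2.57 to 5.04), 4.39 CPM (2.64 to 6.85) and 29.9 CPM (24.3 to 36.4) in tail clusters 0 to 2, with 0 UMIs in cluster 3 of both. Clusters 0 and 2 were therefore in opposite order in the 2 libraries, while clusters 0 and 1 did not differ beyond counting error in either. Its UMIs were few and uneven, since 19 of 37 in tail cluster 0 and 23 of 99 in tail cluster 2 came from 1 cell each. *Ogn* encodes osteoglycin, also called mimecan, and was at 796 CPM (783 to 809.9), 580.2 CPM (566 to 595), 509 CPM (485 to 534) and 34.2 CPM (19.1 to 56.4) in the culture and at 471 CPM (458 to 485), 173 CPM (161 to 186), 291 CPM (272 to 309.5) and 175 CPM (159 to 192) in the tail. Tail clusters 1 and 3 did not differ for *Ogn* beyond counting error.

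**Figure D1:**
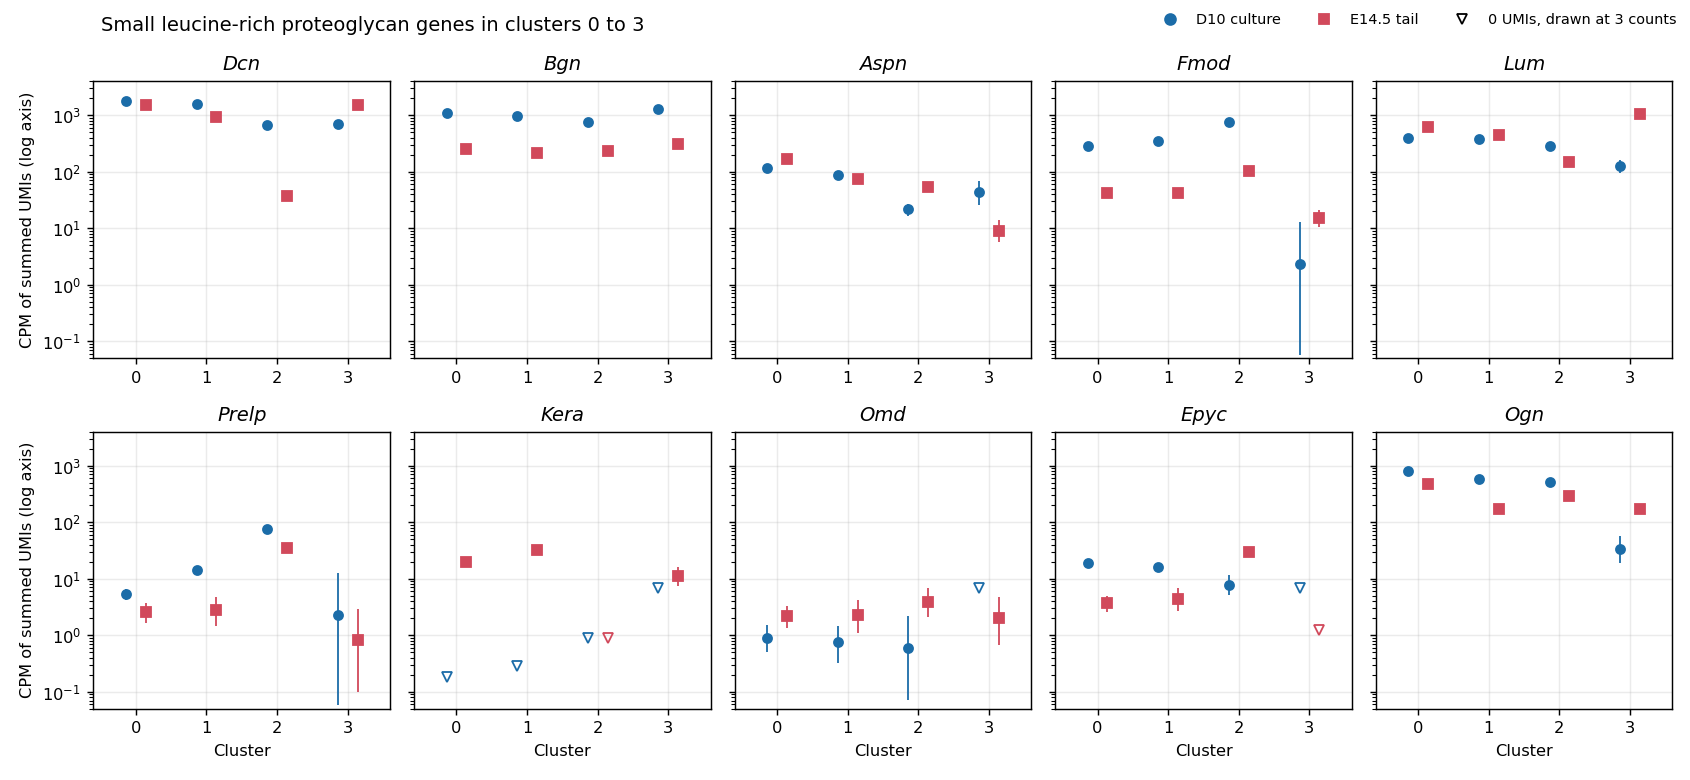
Levels of the 10 members in clusters 0 to 3 of the D10 culture and the E14.5 tail, in CPM of summed UMIs on a log axis, with exact 95% Poisson intervals for counting error. *Fmod* and *Prelp* are highest in cluster 2 of each library, and *Dcn* is at 1499 CPM in tail cluster 0 and 36.3 CPM in tail cluster 2.

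Whether reads were assigned by strand was not given in the sources used here, so that *Aspn*, *Omd* and *Ogn* could share reads with *Cenpp*. *Cenpp* was at 20.2 and 81.7 CPM in culture clusters 0 and 1 and at 8.59 and 96.1 CPM in tail clusters 0 and 1. *Omd* was at 0.904 and 0.747 CPM in culture clusters 0 and 1 and at 2.17 and 2.31 CPM in tail clusters 0 and 1. Whether reads were shared was not tested.

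The first comparison asked how fibrocartilage cells differed from tendon cells of the same library. *Fmod* and *Prelp* were higher in fibrocartilage of both libraries, whereas *Dcn* and *Aspn* were lower in both. A ratio of at least 2-fold in CPM was counted as a difference, and genes with fewer than 50 UMIs in both clusters combined were left out. In the culture, 8 members reached that minimum (not *Kera* and *Omd*), of which 2 were higher and 3 lower in cluster 2, where 2.51% and 6.34% of all 12126 genes were. *Fmod* was higher by 2.65-fold (2.53 to 2.79) and *Prelp* by 14.4-fold (11.3 to 18.6), while *Dcn* was lower by 2.66-fold (2.55 to 2.78), *Aspn* by 5.32-fold (4.20 to 6.84) and *Epyc* by 2.46-fold (1.65 to 3.82). The other 3 did not pass, with ratios of 0.696 for *Bgn*, 0.731 for *Lum* and 0.639 for *Ogn*.

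In the tail, 9 members (not *Omd*) were read, with 3 higher and 4 lower in cluster 2, against 3.52% and 8.56% of 12300 genes. *Fmod* was higher by 2.45-fold (2.12 to 2.84), *Prelp* by 13.9-fold (9.03 to 22.1) and *Epyc* by 8.19-fold (5.56 to 12.3). *Dcn* was lower by 41.3-fold (34.5 to 49.9), *Lum* by 4.17-fold (3.80 to 4.58), *Aspn* by 3.13-fold (2.67 to 3.67) and *Kera* by at least 22.2-fold, the last against a floor of 3 counts in place of 0 UMIs, so that it reached the minimum through cluster 0 alone. *Prelp* and *Epyc*, with 26 and 37 UMIs in tail cluster 0, likewise reached it only through cluster 2, where they were high. The size of the *Dcn* ratio rests on few cells, since the tail cluster 2 level was 22.9 CPM without 1 cell and the share of its cells with *Dcn*, given further on, was at background. The *Fmod* and *Prelp* ratios of the 2 libraries had overlapping intervals, and the *Dcn* ratios did not. The members' median log2 ratio, −0.58 for the culture and −0.70 for the tail, stood beside 0.01 and −0.00236 for all genes. Markers of other cells moved with this comparison: 6 blood markers summed to 4560.4 CPM in tail cluster 2 and 1074 in tail cluster 0, and 5 epithelial markers to 78.6 and 23.0 CPM. Their part in the result was not tested, and the members summed to 16.0 and 248 CPM in the blood cells of tail clusters 11 and 5.

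**Figure D2:**
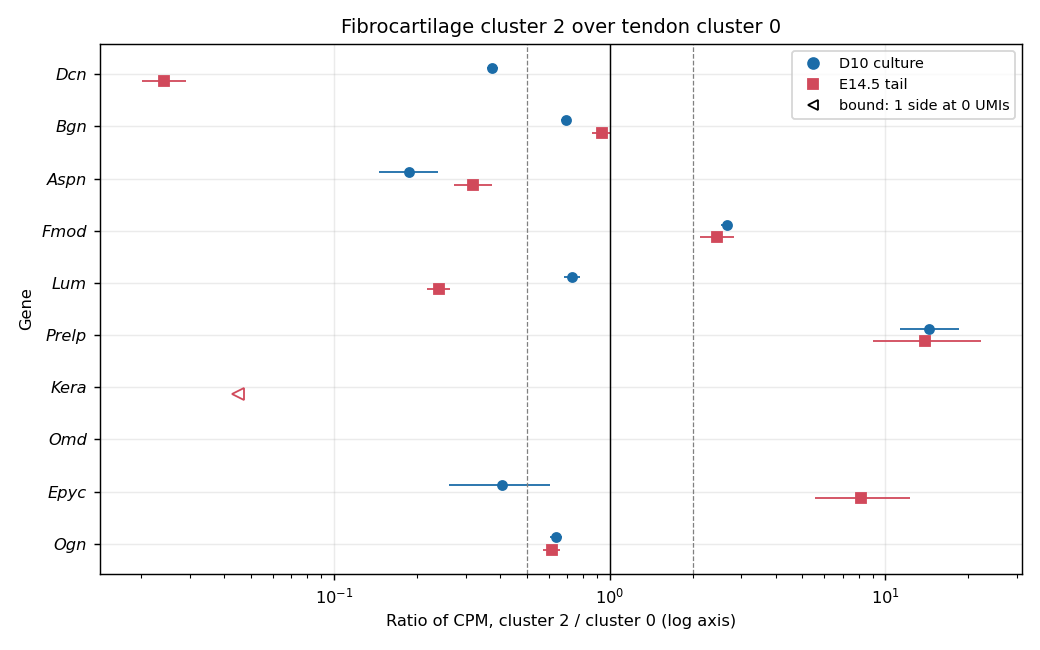
Ratio of CPM in cluster 2 over cluster 0 for each member on a log axis, in the D10 culture and the E14.5 tail, with exact 95% conditional binomial intervals for counting error. *Fmod* and *Prelp* lie right of 2-fold in both libraries, and *Epyc* lies at 0.407 in the culture and 8.19 in the tail.

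Genes with related roles were read from 4 lists, to be set against the 2.51% of all genes that were higher and 6.34% lower in the culture, and 3.52% and 8.56% in the tail. Of 8 other SLRP genes, 5 were tested in the culture, with 2 higher and 1 lower, and 4 in the tail, with 2 higher and none lower. *Chad* (chondroadherin, a cartilage matrix protein) and *Chadl* were higher in cluster 2 of both libraries. However, *Chad*, with 1 UMI in tail cluster 0, reached the minimum there only through cluster 2. *Podn* was lower in the culture (2.10 CPM in cluster 2, 4.70 CPM in cluster 0). With 7 UMIs in culture cluster 2, it reached the minimum only through cluster 0. *Chad* was at 5.55 and 58.0 CPM in culture clusters 0 and 2 and at 0.0988 and 35.7 CPM in the tail, and *Chadl* at 2.53, 7.82, 9.28 and 55.6 CPM. Of the genes that build and sulfate chondroitin and dermatan chains, 3 of 23 tested were higher and none lower in the culture, and 4 of 23 higher and none lower in the tail. Both counts held *Xylt1*, the xylosyltransferase that starts the chain (2.60-fold in the culture, 2.11-fold in the tail), and *Papss2*, which makes the sulfate donor (2.88-fold and 7.22-fold). The remaining culture gene was the sulfotransferase *Chst3* (2.68-fold), and the other two of the tail were the sulfotransferase *Chst11* (5.94-fold) and the sulfate transporter *Slc26a2* (3.24-fold). Of the keratan sulfate genes, *B4galt4* and *Chst2* were lower in cluster 2 of both libraries, with 2 of 8 tested lower in the culture, 2 of 9 in the tail, and none higher. Of 20 collagens and other matrix partners, 3 were higher and 5 lower in the culture, and 3 higher and 11 lower in the tail. *Col1a1*, which encodes type I collagen, was lower by 2.20-fold in the culture and 4.41-fold in the tail, whereas the type II collagen gene *Col2a1* was higher by 10.4-fold and 38.6-fold. The *Dcn* ratio in the tail, 41.3-fold lower, was thus larger than that of *Col1a1* in the same cells.

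In proliferating tendon cells, few members differed by 2-fold from cluster 0. In the culture, *Prelp* was the only one of 8 members (not *Kera* and *Omd*) that passed, at 2.69-fold (2.06 to 3.54) higher, and none was lower, where 3.53% and 1.91% of 12703 genes were. In the tail, none of 8 (not *Prelp* and *Omd*) was higher and 2 were lower, where 4.83% and 4.96% of 12470 genes were. These were *Aspn*, lower by 2.26-fold (2.0 to 2.56), and *Ogn*, by 2.72-fold (2.51 to 2.94). In the culture the same ratios were 0.762-fold (0.703 to 0.825) for *Aspn* and 0.729-fold (0.707 to 0.751) for *Ogn* and did not pass. The median log2 ratio of members was −0.19 and −0.36, beside −0.08 and −0.14 for all genes of the culture and the tail. Markers of other cells moved with this comparison. The cartilage markers were higher in cluster 1 for 4 of 9 genes in the culture (1430 against 779 CPM) and 8 of 9 in the tail (1946 against 447 CPM), and the blood markers for 5 of 5 tested in the tail (5905 against 1074 CPM). Their part in the members' ratios was not tested.

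In the tail, the *Scx*-poor cells of cluster 3 (*Scx* 90.1 CPM against 1472 in cluster 0) was compared with tendon cells. *Dcn* and *Lum*, the most abundant members of both, differed by less than 2-fold, with ratios of 1.0-fold (0.968 to 1.04) and 1.69-fold (1.61 to 1.77), as did *Bgn* with 1.20-fold (1.11 to 1.31). With the mean of per-cell CPM in place of summed UMIs, *Lum* passed 2-fold. *Aspn* was lower by 18.3-fold (12 to 29.3), *Fmod* by 2.82-fold (2.0 to 4.08) and *Ogn* by 2.70-fold (2.44 to 2.98). Thus none of 7 members (not *Prelp*, *Omd* and *Epyc*) was higher and 3 were lower in cluster 3, where 7.19% and 11.0% of 12367 genes were. *Aspn*, *Fmod* and *Kera*, with 22, 36 and 27 UMIs in cluster 3, reached the minimum only with those of cluster 0. The median log2 ratio of members, −0.86, was the *Kera* ratio. *Kera* entered through cluster 0, so this median is not read against the −0.08 of all genes. Among markers of other cells, 2 of 3 proliferation markers were higher in cluster 3 (272 against 79.5 CPM summed), while 5 of 8 cartilage markers tested (127 against 447 CPM) and 4 of 4 blood markers tested (133 against 1074 CPM) were lower. Their part in the members' ratios was not tested.

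The 53 culture cells of cluster 3 differed more widely from culture tendon cells, with none of 8 members (not *Kera* and *Omd*) higher and 7 past the 2-fold mark as lower, beside 11.4% and 22.0% of 11838 genes. One of these, *Prelp*, could not be read at this depth, which leaves 6. *Bgn* was the exception, at 1.18-fold (1.08 to 1.28). *Dcn* was lower by 2.59-fold (2.31 to 2.91), *Lum* by 3.08-fold (2.36 to 4.09), *Aspn* by 2.63-fold (1.68 to 4.37) and *Ogn* by 23.3-fold (14.1 to 41.6). *Fmod* (1 UMI) was lower by 123-fold (22.1 to 4877) and *Epyc* (0 UMIs) by at least 2.81-fold, and *Prelp*, also with 1 UMI, had an interval of its ratio that spanned 1 (0.0108 to 2.46) and lost its call when ratios were taken relative to the median of all genes. These 3 members, and *Aspn* and *Ogn* with 19 and 15 UMIs in cluster 3, reached the minimum of UMIs through cluster 0 alone. The floor of 3 counts, 6.83 CPM in cluster 3, was above the *Prelp* level of cluster 0, so a lower *Prelp* level was not detectable at this depth. The median log2 ratio of members, −1.44, lay midway between *Aspn* and *Epyc*, the latter a bound set by the floor. Both entered through cluster 0, so this median is not read against the −0.28 of all genes. *Lum* therefore had ratios of cluster 3 over cluster 0 on opposite sides of 1 in the 2 libraries. Markers of other cells also moved in the culture. Lower in cluster 3 were 7 of 9 cartilage (132 against 779 CPM) and 3 of 3 proliferation markers (50.1 against 413 CPM). So were 4 of 5 paraxial mesoderm markers tested (18.2 against 253 CPM). The epithelial markers summed to 223 against 38.4 CPM, with 1 of 3 tested higher. Their part in the members' ratios was not tested.

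Tendon cells of the culture were then set beside those of the tail, to ask how far the mESC-derived cells match the embryo. *Bgn*, *Fmod*, *Prelp* and *Epyc* were higher in the culture and *Kera* was lower, whereas *Dcn* differed by less than 2-fold. In cluster 0, 9 members (not *Omd*) were read, 4 higher and 1 lower, beside 8.74% and 17.0% of 13553 genes. *Fmod* was higher by 6.75-fold (6.11 to 7.47), *Epyc* by 5.26-fold (3.74 to 7.61), *Bgn* by 4.39-fold (4.22 to 4.58) and *Prelp* by 2.07-fold (1.32 to 3.33). The *Prelp* call was lost with the mean of per-cell CPM. *Epyc* and *Prelp* had 37 and 26 UMIs in tail cluster 0, so they reached the minimum only with those of the culture. *Kera* was lower by at least 111-fold, and since all its UMIs were in the tail it could reach the minimum only by differing. Ratios of 1.18-fold (1.15 to 1.20) for *Dcn*, 0.634-fold (0.612 to 0.656) for *Lum*, 0.687-fold (0.643 to 0.734) for *Aspn* and 1.69-fold (1.63 to 1.75) for *Ogn* did not pass. Markers of other cells also differed between these tendon cells. In the culture, 6 of 6 mesenchyme markers (258 against 1518 CPM summed), 4 of 4 blood markers tested (23.5 against 1074 CPM) and 4 of 4 neural markers tested (6.87 against 51.2 CPM) were lower. By contrast, 3 of 3 proliferation markers (413 against 79.5 CPM) and 3 of 3 endoderm markers tested (42.6 against 1.88 CPM) were higher. Their part in the members' ratios was not tested.

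The same members passed in cluster 1, joined by *Ogn*, which was higher by 3.34-fold (3.1 to 3.61). Of 9 members (not *Omd*) read there, 5 were higher and 1 lower, beside 7.72% and 11.5% of 11750 genes. *Fmod* was higher by 8.39-fold (7.22 to 9.79), *Prelp* by 5.16-fold (2.87 to 10.2), *Bgn* by 4.56-fold (4.26 to 4.88) and *Epyc* by 3.66-fold (2.27 to 6.23), and *Kera* was lower by at least 114-fold. *Prelp* and *Epyc*, with 12 and 19 UMIs in tail cluster 1, reached the minimum only with those of the culture, and *Kera* only through the tail. In the culture, 6 of 6 mesenchyme markers (252 against 1297 CPM) and 4 of 4 blood markers tested (4.76 against 5905 CPM) were lower, and their part was not tested.

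In fibrocartilage cells, *Dcn* was the member with the largest ratio, higher in the culture by 18.3-fold (15.2 to 22.1), against the tail level that was 36.3 CPM with and 22.9 CPM without 1 cell. *Fmod* was higher by 7.30-fold (6.52 to 8.21), *Bgn* by 3.27-fold (3.02 to 3.55) and *Prelp* by 2.14-fold (1.71 to 2.69), while *Epyc* was lower by 3.83-fold (2.46 to 6.15) and *Aspn* by 2.48-fold (1.87 to 3.31). In all, 4 of 8 members (not *Kera* and *Omd*) were higher and 2 lower, beside 6.94% and 10.8% of 10150 genes. *Epyc*, with 26 UMIs in culture cluster 2, reached the minimum only with those of the tail. Markers that were lower in the culture were 4 of 9 for cartilage (5707 against 11093 CPM), 4 of 5 tested for mesenchyme (169 against 484 CPM) and 4 of 4 tested for blood (6.62 against 4560.4 CPM), whereas 3 of 3 for proliferation were higher (373 against 100.4 CPM). Their part in the ratios of *Epyc* and the other members was not tested. *Lum*, at 1.93-fold (1.73 to 2.16), and *Ogn*, at 1.75-fold (1.62 to 1.90), did not pass, though *Lum* did so relative to the median of all genes and with the mean of per-cell CPM. The median log2 ratio of the members was 0.76, 1.74 and 1.02 in clusters 0, 1 and 2, beside −0.21, −0.14 and −0.13 for all genes. The libraries also differ in depth and in origin, which cannot be told apart here.

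**Figure D3:**
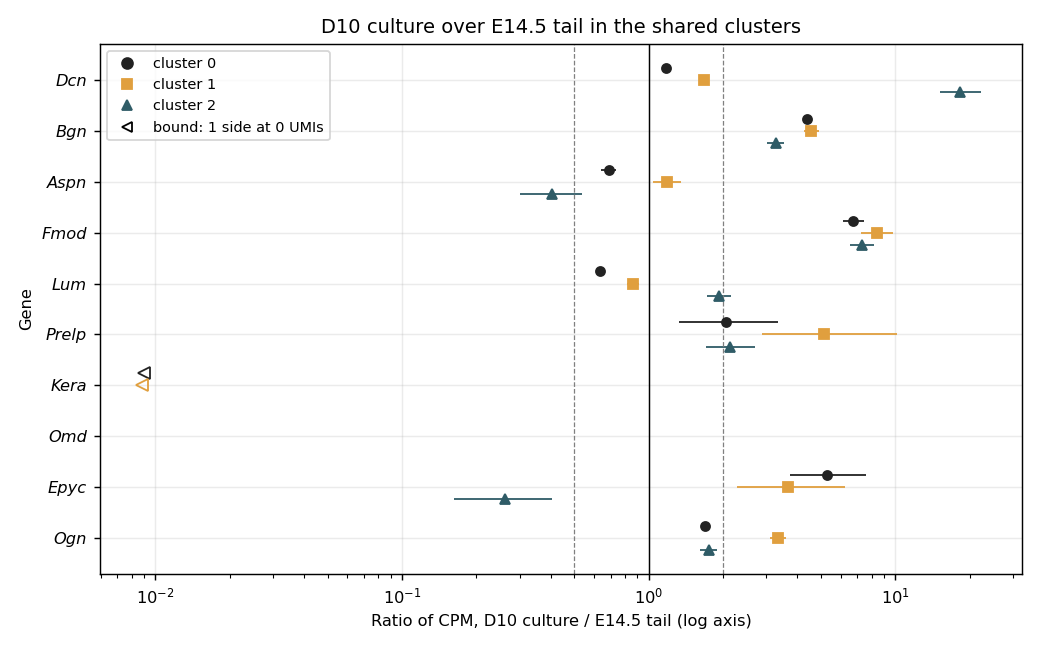
Ratio of CPM in the D10 culture over the E14.5 tail for each member in clusters 0, 1 and 2, on a log axis, with exact 95% conditional binomial intervals for counting error. *Bgn*, *Fmod* and *Prelp* lie right of 2-fold in all 3 clusters, and *Dcn* does so in cluster 2 at 18.3.

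The genes that build glycosaminoglycan chains were compared in the same cells. In cluster 0, none of 23 chondroitin and dermatan sulfate genes was higher in the culture and 5 were lower, beside the 17.0% of all genes that were lower in this comparison, so that the count lay near the background. The 5 genes were *Xylt1* (2.52-fold lower), *B3galt6* (2.64-fold), *Csgalnact1* (4.63-fold), *Chpf* (2.21-fold) and *Chst3* (2.46-fold), which start, extend or sulfate the chain. Of the keratan sulfate genes tested, 2 of 9 were higher and 3 lower. Of 20 collagens and matrix partners, 3 were higher and 2 lower. All these counts stand beside 8.74% of all genes higher and 17.0% lower. *Chad* was higher in the culture by 56.1-fold (9.83 to 2242), on 1 UMI in tail cluster 0.

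D10 tendon cells were next set beside D6 PM cells, the stage from which the culture was continued. Of the 7 members with at least 50 UMIs (not *Omd*), 7 were higher in D10 tendon cells than in D6 PM as a whole and none was lower, beside 12.1% and 24.2% of 16554 genes. The ratios ran from 5.25-fold (5.13 to 5.38) for *Bgn* and 16.5-fold (16.0 to 17.0) for *Dcn* to 2753-fold (1668 to 4919.6) for *Ogn* and 3646-fold (1423 to 13386) for *Fmod*, which had 4 UMIs in D6 PM. *Fmod*, *Prelp* and *Ogn*, with at most 15 UMIs each in D6 PM, reached the minimum only through the D10 cells. *Lum* was higher by 23.7-fold (22.0 to 25.4), *Prelp* by 39.3-fold (18.3 to 101) and *Aspn* by 84.2-fold (66.3 to 108). The median log2 ratio of members, 5.30, was the *Prelp* ratio. *Prelp* entered through the D10 cells, where it was high, so this median is not read against the −0.20 of all genes. Of 20 collagens and matrix partners, 19 were higher, and of the chondroitin and dermatan sulfate genes 11 of 24 were higher and 1 lower. The cells compared also differed in markers of other cell types, which were lower in D10 tendon cells for 6 of 6 pluripotency, 5 of 5 endothelial, 4 of 4 muscle, 3 of 3 epithelial and 5 of 6 blood genes tested, with median log2 ratios from −5.98 to −2.80. Their part in the members' ratios was not tested.

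Most SLRP UMIs of D6 PM lay in 1 cluster. Its cluster code 5, with 662 cells and 6958 CPM of 7 fibroblast markers, held *Bgn* at 1761 CPM (1727 to 1795), *Dcn* at 901 CPM (877 to 925), *Lum* at 93.3 CPM (85.6 to 101) and *Aspn* at 11.5 CPM (8.95 to 14.6). *Ogn* and *Prelp* were at 2.37 and 1.02 CPM there, and *Fmod* had 0 UMIs. These fibroblast-like cells were poor in *Scx* (5.43 CPM) and in paraxial mesoderm markers (11.5 CPM for 7 genes). By contrast, the cells of code 4 (700 cells), with the most paraxial mesoderm markers (416 CPM), held *Lum* at 47.1 CPM (41.8 to 52.8), *Bgn* at 28.6 CPM (24.5 to 33.2) and *Dcn* at 24.3 CPM (20.6 to 28.6). *Lum* was thus first among the members in code 4, whereas it followed *Bgn* and *Dcn* in code 5. In codes 1, 2 and 3 the members summed to 9.57, 7.88 and 5.76 CPM, and in code 6 *Bgn* was at 77.0 CPM (65.0 to 90.6).

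Set against code 5 alone, a comparison chosen after the values were seen, D10 tendon cells were at 1.96-fold the *Dcn* level, which is below the 2-fold mark, and at 0.627-fold the *Bgn* level, which turned the direction. They remained higher by 4.13-fold (3.79 to 4.52) for *Lum*, 9.85-fold (7.74 to 12.7) for *Aspn* and 335-fold (199.8 to 614) for *Ogn*. *Prelp* was higher by 5.21-fold (2.30 to 14.6), on 6 UMIs in code 5, where *Ogn* had 14. For *Fmod* the bound was at least 553-fold higher. The 3 proliferation markers summed to 42.7 CPM in code 5 and to 54.1 to 2152 CPM in the other codes, and the origin of code 5 was not tested. Set against code 4, D10 tendon cells were higher by 72.5-fold (61.7 to 85.8) for *Dcn*, 38.6-fold (33.2 to 45.0) for *Bgn* and 8.19-fold (7.28 to 9.26) for *Lum*.

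**Figure D4:**
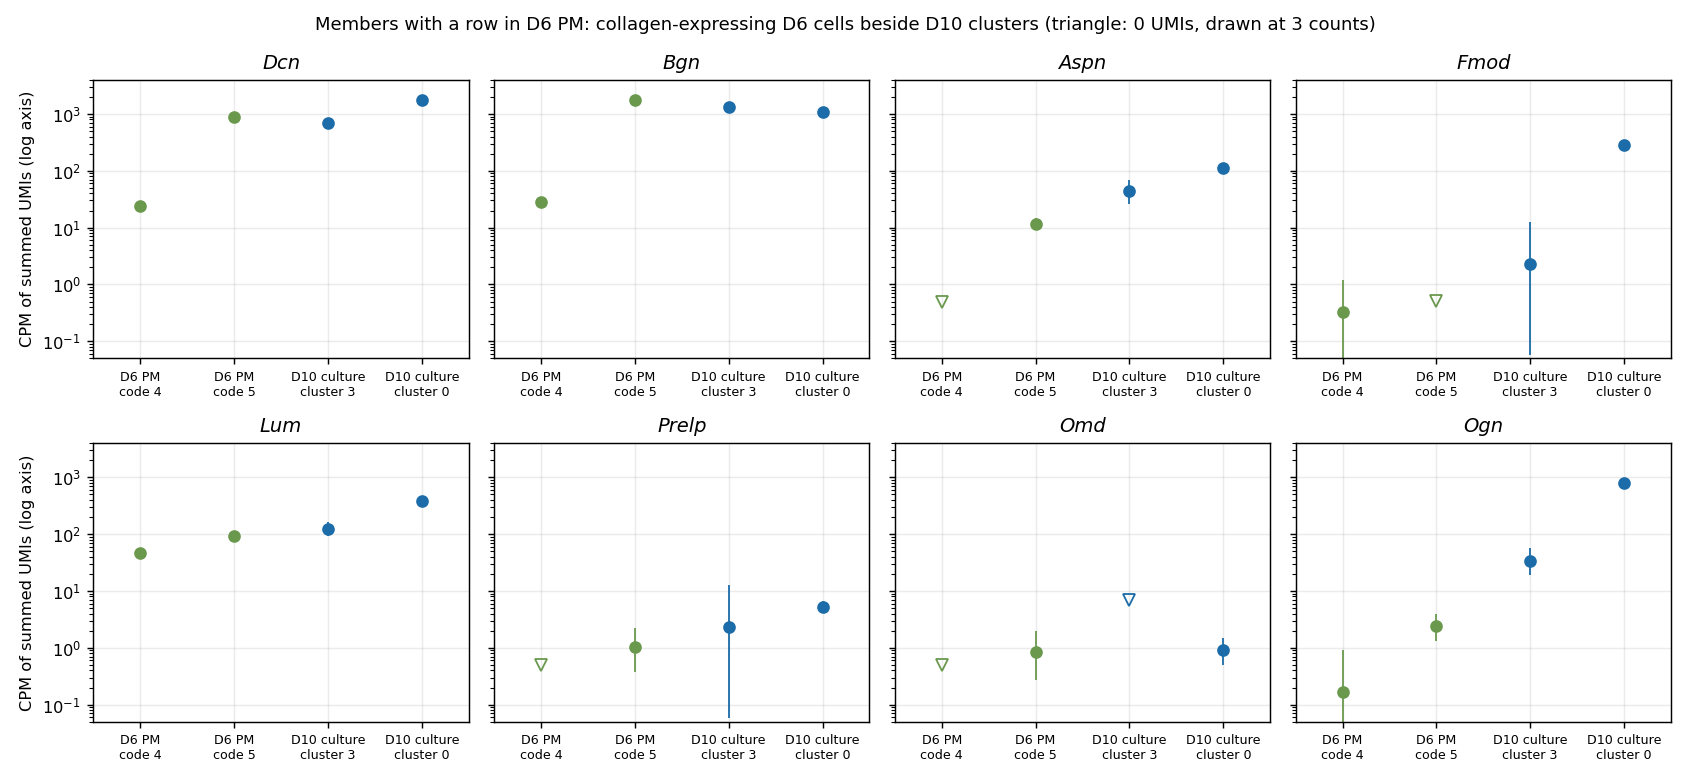
Levels of the 8 members with a row in D6 PM, in CPM on a log axis with exact 95% Poisson intervals for counting error, in D6 PM codes 4 and 5 and in D10 culture clusters. *Bgn* in code 5, at 1761 CPM, lies above its D10 tendon level of 1104 CPM, whereas *Fmod* has 0 UMIs in code 5 and 281 CPM in D10 cluster 0.

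To see how many cells carried each member, cells were thinned at random to 3000 UMIs, and shallower cells were left out (1157 of the culture, 100 of the tail and 1006 of D6 PM). Of culture tendon cells, 93.4% (92.3 to 94.3) then held a *Bgn* UMI, 73.9% (72.2 to 75.6) *Dcn*, 70.1% (68.3 to 71.9) *Ogn*, 54.6% (52.7 to 56.6) *Lum* and 43.5% (41.5 to 45.4) *Fmod*. Of tail tendon cells, 56.8% (53.0 to 60.6) held *Dcn*, 49.7% (45.9 to 53.5) *Ogn*, 45.9% (42.1 to 49.7) *Bgn*, 42.5% (38.7 to 46.3) *Lum* and 9.73% (7.61 to 12.2) *Fmod*. *Bgn* was thus found in more culture tendon cells than any other member, whereas the order of *Dcn* and *Bgn* in tail tendon cells depended on the depth. At 5000 UMIs per cell, 60.8% of tail tendon cells held *Dcn* and 62.8% *Bgn*, and without thinning the shares were 68.9% and 82.0%. Without thinning, the culture shares were 77.7% and 96.8%.

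As a background, the pluripotent cells of culture cluster 4 (median 10369.5 UMIs per cell) held *Dcn* in 3.70% (2.66 to 5.0) and *Bgn* in 3.70% (2.66 to 5.0), and the blood cells of tail cluster 11 (median 8391.5) held *Dcn* in 5.6% (2.28 to 11.2). Tendon cells had medians of 4918.5 and 13463 UMIs in culture and tail. The *Dcn* share of tail fibrocartilage cells, 3.33% (1.45 to 6.46), was at or below that background and is read as such, whereas 44.8% (40.9 to 48.7) of culture fibrocartilage cells held *Dcn*. *Fmod* was found in 73.6% (70.0 to 77.0) of culture and 21.2% (16.3 to 27.0) of tail fibrocartilage cells, and *Prelp* in 15.4% (12.7 to 18.5) and 7.5% (4.51 to 11.6). *Kera* was found in 2.65% (1.58 to 4.16) of tail tendon cells, which is not above the upper bound of 2.91% for 0 of 125 blood cells of tail cluster 11. *Epyc* was in 0.295% (0.0357 to 1.06) of tail tendon and 2.92% (1.18 to 5.92) of tail fibrocartilage cells, whose intervals also reach below that bound. With 125 blood cells, shares this low of *Kera* and *Epyc* cannot be told from background either way. Before thinning, 99 of the 156 *Epyc* UMIs of the tail were in cluster 2, 37 in cluster 0, 19 in cluster 1 and 0 in cluster 11. Of the 371 *Kera* UMIs, 204 were in cluster 0, 138 in cluster 1 and 0 in cluster 11. The median tendon cell of the culture held UMIs of 4 members and that of the tail of 2, with no member in 0.385% and 13.6% of cells.

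Within a cluster the members were spread unevenly. In tail cluster 0 the median cell had 458 CPM of *Dcn*, below the pooled level of 1499, and the 10% of cells with the most *Dcn* UMIs held 45.0% of them, with 14.6% of all UMIs. In culture cluster 0 that median was 1143 CPM and the share 37.5%. *Bgn* was more even in the culture, with a median cell at 1064 CPM and 26.2% of its UMIs in the top 10% of cells, whereas the top 10% held 69.5% of *Aspn* UMIs in culture and 67.8% in tail tendon cells. In D6 PM code 5, the top 10% of cells held 97.1% of *Lum* UMIs.

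Some members were found in the same cells. At 3000 UMIs per cell, 67.5% of the 385 tail tendon cells with *Dcn* held *Lum*, against 9.56% of cells without *Dcn*. In culture tendon cells the shares were 59.9% and 39.6%, and in D6 PM code 5 17.7% and 1.75%. The chromosome 13 neighbors *Aspn* and *Ogn* also went together in the tail, where 74.5% of tendon cells with *Aspn* and 43.0% of those without held *Ogn*. *Scx* itself was found in 28.6% of tail tendon cells with *Dcn* and in 44.7% of those without, and for *Fmod* these shares were 51.5% and 33.8%. *Fmod* and *Dcn* therefore went with *Scx* in opposite ways.

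*Fmod* also went with the cartilage collagen *Col2a1* in tendon cells. *Col2a1* was found in 45.5% of tail tendon cells with *Fmod* and 18.0% without, and in 42.0% and 27.1% in the culture. Within culture fibrocartilage, *Prelp* was found in 9.41% of the 287 cells with *Dcn* and 20.3% of those without, and in 18.4% of cells with *Fmod* and 7.10% of those without. In tail fibrocartilage, the aggrecan gene *Acan* was found in 61.7% of the 47 cells with *Lum* against 15.5%, in 55.6% of the 18 cells with *Prelp* against 22.1%, and in 10.6% of the 151 cells with *Scx* against 48.3%. *Lum* and *Prelp* thus lay in the *Acan* side and *Scx* in the other side of that cluster. These cells share a library, so the shares describe it and are not replicated.

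Outside the connective tissue clusters, the makeup of the family differed by cell type. In the tail, *Dcn* made up 86.3% and 78.9% of the members' UMIs in clusters 4 and 7, which hold epidermal cells (4414 and 4909.9 CPM of 5 epithelial markers). *Dcn* was at 390.2 CPM (356 to 427) and 301 CPM (275 to 327) there, 37.7-fold and 29.0-fold its level in the blood cells of cluster 11. *Col1a1*, which is more abundant than *Dcn* in tail tendon cells (3185 against 1499 CPM), was at 60.9 and 113 CPM in the epidermal clusters. The source of the *Dcn* UMIs there was not tested. In the endothelial cells of tail cluster 10, *Bgn* made up 82.1% of the members' UMIs, at 214 CPM (191 to 239), with *Dcn* at 1.41 CPM (0.171 to 5.10). Culture cluster 10 (58 cells), also endothelial by its markers (2162 CPM of 5 genes), held *Bgn* at 115 CPM (81.5 to 158) and *Dcn* at 106 CPM (73.9 to 148). There 28 of the 35 *Dcn* UMIs came from 1 cell, without which the level was 22.2 CPM. In culture clusters 4, 5 and 8, which have pluripotency markers, the members summed to 66.9, 544 and 162 CPM, with *Dcn* making up 31.4%, 33.0% and 43.4% of them beside 39.5% in cluster 0. Doublets were called for 2.39%, 6.21% and 4.32% of the cells of these clusters. Without them, the *Dcn* level was 10.4 in place of 21.0 CPM in cluster 4, 89.1 in place of 179.7 CPM in cluster 5 and 43.9 in place of 70.4 CPM in cluster 8, and the *Ogn* level in cluster 5 was 35.2 in place of 113 CPM. In culture cluster 12, also with pluripotency markers, the members summed to 24.3 CPM. In culture clusters 6 and 7 they summed to 779.7 and 119 CPM, and in tail clusters 5, 6, 8, 9, 11 and 13 to between 16.0 and 248 CPM.

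Among clusters 0 to 3, *Dcn* led in cluster 0 of both libraries with 39.5% of the members' UMIs in the culture and 48.9% in the tail. In fibrocartilage, *Bgn* (25%) and *Fmod* (24.3%) led in the culture and *Ogn* (31.2%) and *Bgn* (25.2%) in the tail, where *Dcn* made up 3.89%. *Bgn* led in culture cluster 3 (59.4%) and in D6 PM code 5 (63.6%).

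**Figure D5:**
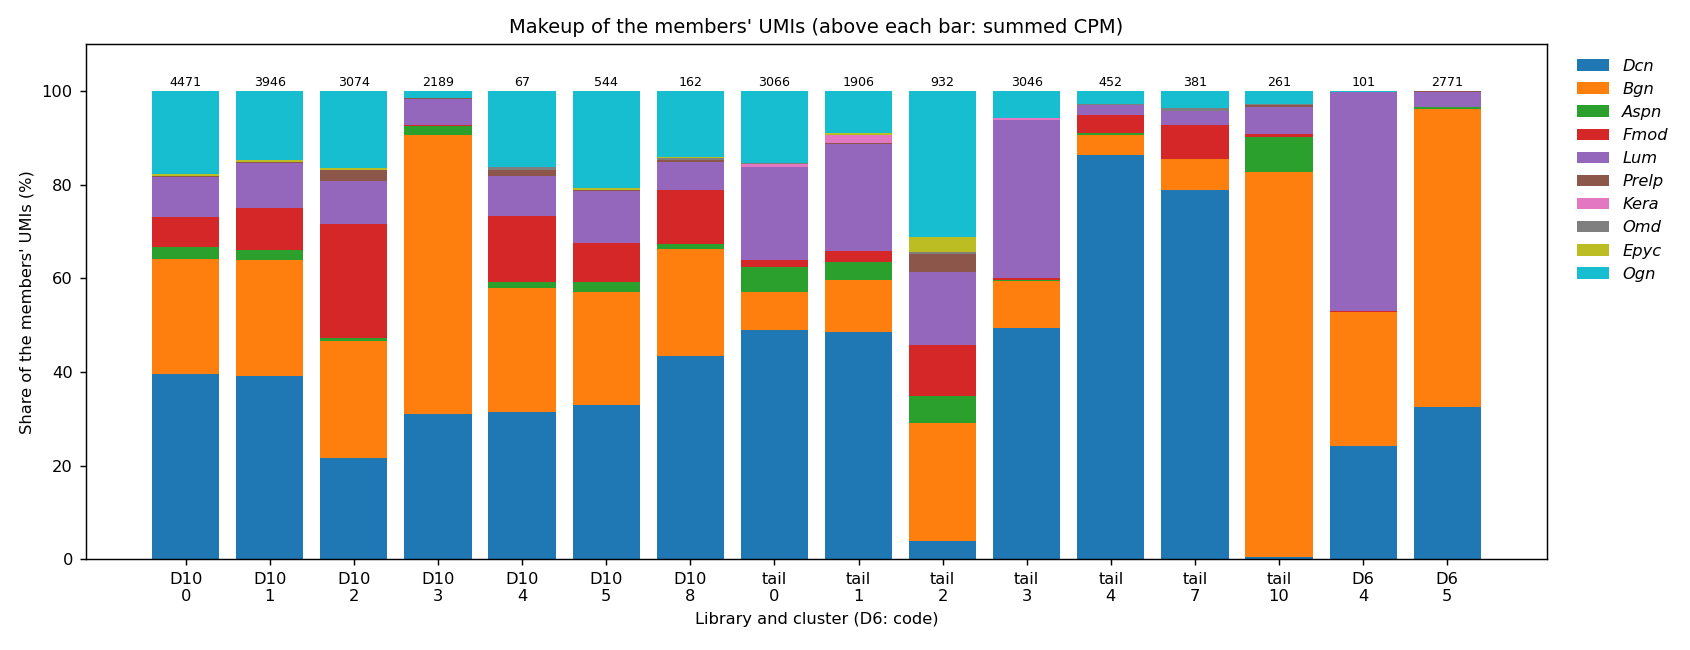
Share of each member in the summed UMIs of the members, in percent, for clusters of the D10 culture and E14.5 tail and codes of D6 PM, with the summed CPM above each bar. *Dcn* takes 86.3% in tail cluster 4, and *Bgn* takes 82.1% in tail cluster 10.

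The genes most like each member were read from Pearson's r of log2(CPM + 1) over 27 clusters of at least 50 cells in the 3 libraries, among 8459 genes at 50 CPM or more in any of them. Clusters of a library share its depth and preparation, so r is a description. *Lum* was closest to the fibrillar collagen genes *Col3a1* (r = 0.97), *Col1a2* (0.97) and *Col1a1* (0.96), and *Dcn* to *Col1a1* (0.92), *Col1a2* (0.90) and *Gm38211* (0.89). *Bgn* was closest to *Oaf* (0.92), *Fkbp10* (0.92), which encodes a collagen chaperone, and the matrix protease gene *Mmp2* (0.92). *Ogn* was closest to *Fibin* (0.96), *Col14a1* (0.94) and *Mgp* (0.90), and *Aspn* to *Fbln5* (0.88), *Tgfb3* (0.83) and *Col5a2* (0.83). *Fmod* was closest to *Penk* (0.92), its fellow member *Ogn* (0.90) and the cartilage gene *Matn4* (0.89), and *Prelp* to *Matn4* (0.83), *Lbhd2* (0.81) and *Wwp2* (0.81). With Spearman's rho, the genes closest to *Prelp* were instead *Pdia4*, *Cspg4* and *AI506816* (0.82 each), whereas the lists of the other members kept 2 or 3 of their genes. Over the clusters of the culture and the tail alone, *Lum* kept all 3 of its genes and each of the other members 1.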

How the data were processed

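Single-cell counts were analysed from D6 PM, from the D10 culture and from the E14.5 tail, with 1 library of each. The authors deposited whole UMI counts per gene and cell, not normalized, with a cluster code for each cell. Per the labels and the methods of the study, 10x Genomics 3′ v3 reads were counted with Cell Ranger, multi-mapping reads were ignored, and cells with many mitochondrial transcripts or extreme totals were removed before clustering with Seurat 3.0. The genome build is not given in the sources used here. The culture, tail and D6 PM libraries held 53403944, 31343741 and 51858825 UMIs, which sets the precision of low genes.

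UMIs were summed per cluster and library in Python 3.11.15 (NumPy 2.4.6, SciPy 1.17.1) and divided by all UMIs of the same cells, and figures were drawn with Matplotlib 3.10.9. Codes of the culture and the tail were given the study's cluster numbers by their markers, not by size (for clusters 2, 3, 4 and 8 the cell counts listed in the study belong to other codes), and D6 PM codes were kept. A 2-fold ratio among genes with at least 50 UMIs was counted, and a group with 0 UMIs was set to a floor of 3 counts. No test was made, and exact 95% intervals cover counting error only.

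Genes were named by these rules: the 10 members, 8 other SLRP genes, lists of chondroitin and dermatan sulfate, keratan sulfate and collagen genes, cell type markers, and the 3 genes most like each member at 50 CPM or more. Not all genes of the lists are printed. The members and lists were chosen with earlier results of these data known. Doublets were called with Scrublet in Scanpy 1.11.5 (116, 9 and 81 cells, in the same order) and kept. Alternatives left out doublets or cells with few genes and varied the totals, the averaging, the centring, the fold, the minimum of UMIs, the thinning depth and the measure of likeness. Promoters and positions came from RefSeq tables of GRCm38.p6.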

Additional observations from a re-analysis of the deposited data

Results flagged for a closer look

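*Epyc* had ratios on opposite sides of 1 in the 2 libraries when cluster 2 was set over cluster 0, with 0.407 in the D10 culture and 8.19 in the E14.5 tail. *Lum* did so when cluster 3 was set over cluster 0, with 0.325 in the culture and 1.69 in the tail. With 1 library each, these differences between libraries were not tested. A single cell held 19 of 37 *Epyc* UMIs in tail cluster 0, and another held 32 of 55 *Lum* UMIs in culture cluster 3. The shares of cells with *Epyc* in tail clusters 0 and 2, 0.295% and 2.92%, were too low to be told from background with the number of blood cells counted.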

How the results depend on the processing

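The limits of these results are 1 library per group, clusters made from the same genes, and few UMIs for *Kera*, *Omd*, *Epyc* and *Prelp*. No paired analysis was possible because each group holds 1 library. Of the counts recomputed under an alternative, 94 stayed within 1.5 times the reported count and 15 did not. At 3-fold, the members called were 2 for cluster 2 over 0 in the culture, 0 for cluster 1 over 0 in either library, 1 for cluster 3 over 0 in the tail and 3 in the culture. At 1.5-fold, they were 4 for cluster 1 and 5 for cluster 3 over 0 in the tail. With at least 20 UMIs, or no minimum, cluster 3 over 0 in the tail gave 5, and with at least 200 UMIs the culture over the tail in cluster 1 gave 3. Levels with at least 50 UMIs that moved by over 1.5 times were 17 without doublets, 2 without cells of fewer than 1000 genes, 2 with other totals, 10 with the mean of per-cell CPM and 7 without the highest cell, the last chosen after seeing the data. The log2 ratio of *Bgn* in D10 cluster 0 over D6 PM was −0.67 with code 5 alone, also chosen after seeing the data. The single values recomputed were ratios, levels in cluster 0 and lists of the genes most like a member. Among them, 969 counted as unchanged, 28 lost their call, 22 gained one and 1 reversed, which is the *Bgn* ratio against code 5. A ratio without a call under either setting counted as unchanged whatever its direction. Another fold or minimum of UMIs leaves the ratio itself as it is. Under another minimum of UMIs the calls lost or gained had the same ratio and only left or entered the genes tested. In 7 further cases, at most 1 of the 3 genes most like a member was shared with the list reported. The cause of these changes was not tested.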
